A study of Mus musculus with 30 samples.

Results

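Accessible chromatin around 10 genes that carry actin across the nuclear envelope, sever or recycle its filaments, or sense its monomers was compared between control cells and cells treated with an actin inhibitor. The genes were Ipo9, Xpo6, Cfl1, Cfl2, Dstn, Pfn1, Pfn2, Mical2, Mrtfa and Mrtfb. A window, one of the genome stretches in which reads had been counted, was assigned to a gene when that gene had the nearest protein-coding start site (GENCODE vM21 on GRCm38) and the start site was at most 50 kb away, a rule that uses no measured value. It gave 224 of 305931 windows in the table of the 24 h experiment and 262 of 369846 windows in the table of the 4 h experiments. Mical2 held 62 and 68 of them, Mrtfb 43 and 49, Mrtfa 40 and 45, Dstn 31 and 37, Cfl2 14 and 19, Xpo6 14 in each, Ipo9 11 and 12, Cfl1 5 and 3, Pfn1 2 and 4, and Pfn2 2 and 11. The long genes Mical2, Mrtfa and Mrtfb therefore supplied 64.7% and 61.8% of the windows. Introns held 56.7% and 60.3%, 13 and 12 windows contained a start site of the gene, and 11 and 14 lay only within another protein-coding gene.

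The assay was ATAC-seq, in which a transposase cuts open DNA and leaves sequencing adapters there, so the number of reads in a window measures its accessibility. Mesenchymal stem cells (MSCs) from mouse marrow were left untreated or were given CK666 or CytoD for 24 h, other MSCs were left untreated or were given CK666 for 4 h, and NIH3T3 cells, an established mouse embryonic fibroblast line, were left untreated or were given CK666 for 4 h. CK666 inhibits the Arp2/3 complex, which starts branched actin filaments, and CytoD (cytochalasin D) caps the fast-growing ends of filaments. All 7 groups held 3 libraries, and all were labelled as male and C57BL/6J, the NIH3T3 cells included. The MSCs came from the marrow of several mice, and no source used here says whether replicates were separate cultures, so p-values measure the spread between these libraries, which may be technical.

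Actin enters the nucleus bound to cofilin on the importin encoded by Ipo9 and leaves it bound to profilin on the exportin encoded by Xpo6. Cofilins and destrin (Dstn) sever and depolymerise filaments, profilins recharge the released monomers for new growth, and the nuclear enzyme MICAL2 oxidises actin so that filaments fall apart. MRTF-A and MRTF-B (Mrtfa, Mrtfb) bind actin monomers and, once released from them, join the transcription factor SRF at CArG boxes in front of many genes of the cytoskeleton.

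Total counts per library ran from 14071301 to 22352180 at 24 h and from 14496058 to 34979833 at 4 h, and the share of counts in windows with a start site was between 24.3% and 28.1% in every library. Rank correlations between replicates of a group were between 0.834 and 0.930. The lowest, 0.834 and 0.839, were those of NIH3T3 CK666 replicate 1 with replicates 2 and 3. That library had 14496058 counts, against 22303079 and 23146416 in the others of its group. Of 10 stromal markers, 5 and 7 had a tested start-site window, and among markers of blood cells Adgre1 and Lyz2 had one and Ptprc, Spi1 and Itgam lacked it. The summed level of Adgre1 and Lyz2 was 8.62 CPM (counts scaled to the library total) per kb in control, 10.5 in CK666 and 16.5 in CytoD libraries at 24 h. It moved from 8.44 to 12.02 in MSCs at 4 h and from 6.54 to 6.95 in NIH3T3 cells. At 4 h the rise was in Lyz2, from 6.72 to 10.5 in MSCs and from 3.57 to 4.31 in NIH3T3 cells. Adgre1 did not rise there, going from 1.71 to 1.55 and from 2.98 to 2.64. The part of these 2 markers in the results was not tested. Levels of the stromal markers were uneven in control MSCs at 4 h. They were 20.3 at Pdgfra, 16.2 at Pdgfrb, 7.73 at Cxcl12, 2.84 at Col1a1, 2.11 at Prrx1, 0.37 at Lepr and 0.048 at Thy1. The endothelial markers Kdr, Tek and Cdh5 had 4.07, 2.91 and 0.97 there. In bulk cells a smaller change in every cell and a larger one in some of them cannot be told apart.

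In untreated cells the start-site window of Dstn was the most open of the 10 on the scale of CPM per kb of window. Its level was 27.5 ± 1.10 (SD, n = 3) in the 24 h control MSCs, 117.4 ± 4.75 in the 4 h control MSCs and 127.7 ± 17.7 in control NIH3T3 cells, and in each group its lowest library lay above the highest library of the gene next in order. The tables have windows of different width (1592 bp against 526 bp at Dstn) and levels are not compared between them. Widths also differ between genes, from 526 bp at Dstn to 2269 bp at Cfl1 at 4 h. At 24 h they run from 527 bp at Cfl2 to 3391 bp at Pfn1. The order of genes on this scale therefore depends in part on window width. Mical2, Mrtfa and Ipo9 followed at 4 h, with 55.7 ± 2.24, 39.1 ± 3.28 and 23.1 ± 2.75 in MSCs and 35.6 ± 3.97, 21.5 ± 0.699 and 19.4 ± 1.70 in NIH3T3 cells, and only the libraries of Mrtfa and Ipo9 in NIH3T3 cells overlapped. Cfl1 was lowest at 4 h, with 5.15 ± 0.113 and 3.69 ± 0.0901, and Pfn1 was lowest at 24 h, with 3.37 ± 0.352. In normalised counts, not divided by width, these 2 genes changed places. Control MSCs held 314 at Cfl1 and 259 at Pfn1 at 4 h, and 82.3 and 212 at 24 h. Xpo6, Cfl2, Mical2, Ipo9 and Mrtfa lay between 16.8 and 20.7 at 24 h, where each overlapped the next.

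**Figure D1:**
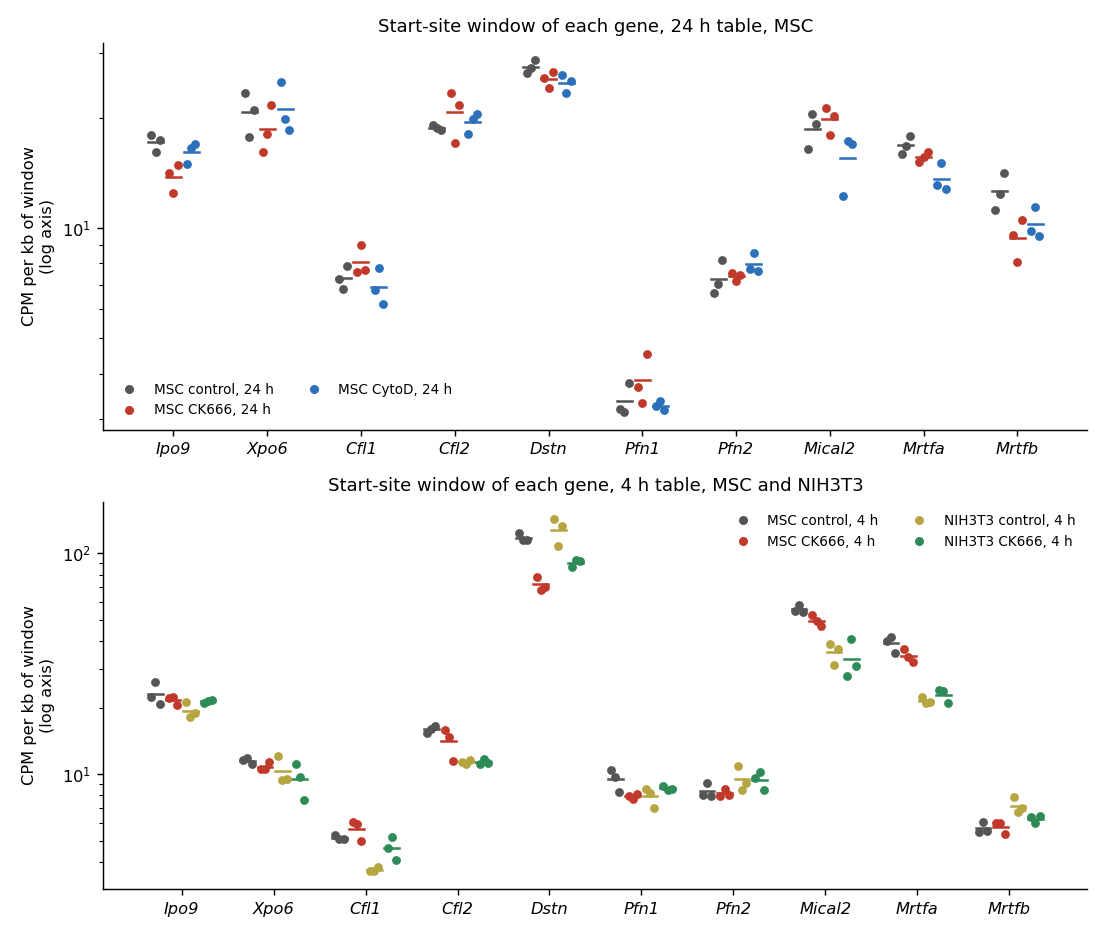
Level of the start-site window of each gene (CPM per kb of window, log axis), in the 24 h table above and the 4 h table below. Points are libraries and lines are means of 3; Dstn stands highest in each control group and is the gene whose CK666 libraries lie apart from its control libraries in both cell types at 4 h.

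Few windows of the 10 genes changed at any time, and most that did so lost accessibility. A window was called when its adjusted p was under 0.01 and its change over 2-fold in edgeR's quasi-likelihood test across all windows. With CK666 for 24 h, 2 of 218 tested windows were called and both were lower, where 1.88% of all tested windows were called higher and 1.06% lower. With CytoD, 1 was higher and 4 were lower, against 0.98% and 1.4% of all windows. With CK666 for 4 h in MSCs, 2 were higher and 3 lower of 239, against 0.59% and 0.427%. In NIH3T3 cells, 4 of 232 were called and all were lower, against 1.87% higher and 1.67% lower. These counts rest on few windows and moved when 1 library was left out, to 4 and 1 with CK666 at 24 h without control replicate 1 and CK666 replicate 1, to 8, 9 and 3 with CytoD when control replicate 1, CytoD replicate 2 or CytoD replicate 3 was absent, to 3 in MSCs at 4 h without control replicate 1 or 2, and to 2 in NIH3T3 cells without CK666 replicate 3.

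Without a limit on the fold, more windows passed the adjusted p, again mainly downward. CK666 for 24 h raised 1 window and lowered 10, which is 0.459% and 4.59% of those tested, against 3.01% and 2.92% of all windows. CytoD raised 2 and lowered 21, the latter 9.63%, against 1.7% and 4% of all windows. CK666 for 4 h raised 3 and lowered 20 in MSCs, the latter 8.37%, against 1.95% and 2.16%, and raised 5 and lowered 16 in NIH3T3 cells, the latter 6.90%, against 2.51% and 4.35%. Of these 16, 10 were at Dstn. The shares were not matched for depth. The median log2 fold change over the tested windows of the 10 genes was -0.13, -0.12, -0.23 and 0.06 in these 4 comparisons, and over all windows it was 0.02, 0.04, 0.00 and 0.04. For windows without a start site and with a mean of at least 100 counts, it was -0.28, -0.51, -0.26 and -0.10 at the 10 genes. Over all such windows it was -0.05, -0.17, -0.01 and -0.23.

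Reads were also summed over all windows of each gene, which gives 1 value per gene and library, and tested across all genes at an adjusted p under 0.01. At 24 h, 2 of the 10 genes were lower with CK666 (Mical2 and Mrtfa), against 7.88% of genes lower and 5.87% higher. With CytoD 3 were lower (Mical2, Mrtfa and Mrtfb), against 9.76% lower and 7.15% higher. In MSCs at 4 h, 4 were lower (Dstn, Mical2, Mrtfa and Cfl2), against 5.82% lower and 5.23% higher. In NIH3T3 cells Dstn and Xpo6 were lower and Mrtfa and Cfl1 higher, against 15.7% and 12.8%. These 4 were not all kept when any 1 library was left out. The number called was then 2 to 3, with 2 without control replicate 3.

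**Figure D2:**
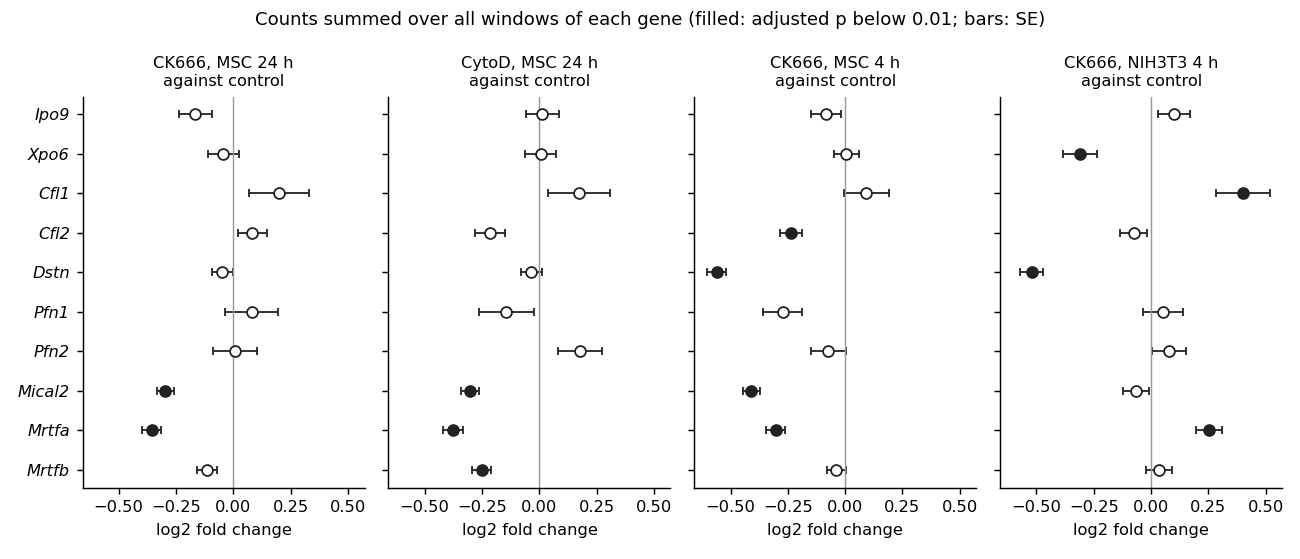
Log2 fold change against control of the reads summed over all windows of each gene, with bars of 1 standard error, in the 4 comparisons of treated with control cells. Filled points passed an adjusted p of 0.01; Mical2 and Mrtfa are lower in each MSC comparison, and Dstn is lower in both cell types at 4 h and close to 0 at 24 h.

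Dstn, the gene of the filament-severing protein destrin, lost accessibility in both cell types at 4 h. It lies on chr2:143915320-143943324 on the plus strand. Summed reads in MSCs were 4973, 4957 and 4817 normalised counts in control and 3453, 3264 and 3288 with CK666, and in NIH3T3 cells they were 4800, 4794 and 4890 in control and 3363, 3307 and 3419 with CK666. The groups were far apart in each cell type. The log2 fold change was -0.56 ± 0.04 (SE; edgeR adjusted p = 5.1e-22) in MSCs and -0.52 ± 0.05 (adjusted p = 1.5e-09) in NIH3T3 cells, and with the 5 kb around its start site alone it was -0.59 and -0.48. The size in NIH3T3 cells depended on the scaling and was -0.34 (adjusted p = 4.7e-08) with abundance-dependent scaling, a loess trend of each library against the mean log count in place of TMM that was added after seeing the data. At 24 h the 9 libraries lay between 1903 and 2056 counts, with log2 fold changes of -0.05 for CK666 (adjusted p = 0.50) and -0.03 for CytoD (adjusted p = 0.61). Whether the effect of CK666 on Dstn differed between 4 h and 24 h was not tested, since the tables were counted over different windows.

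The start-site window of Dstn at 4 h, chr2:143915098-143915623, held 1830, 1711 and 1713 normalised counts in control MSCs and 1155, 1004 and 1064 with CK666, a log2 fold change of -0.71 ± 0.06 (adjusted p = 1.7e-16). It was the only start-site window of the 10 genes that passed in MSCs at 4 h. In NIH3T3 cells it held 1886, 1445 and 1764 in control and 1179, 1246 and 1245 with CK666. The groups did not overlap, but the change of -0.47 ± 0.12 (adjusted p = 0.0040) rested on single libraries. Its adjusted p was 0.088 without control replicate 1, 0.066 without control replicate 3, 0.013 without CK666 replicate 1 and 0.043 without CK666 replicate 3, and its change with abundance-dependent scaling was -0.26 (adjusted p = 0.0014). At 24 h the window over the same start, chr2:143915094-143916685, held 783 to 847 counts in control, 710 to 789 with CK666 and 690 to 774 with CytoD, with log2 fold changes of -0.11 and -0.15 (adjusted p = 0.45 and 0.27).

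A small intergenic window 2.8 kb upstream of the start, chr2:143911996-143912525, changed by a larger factor. It held 79.1, 112.6 and 82.5 counts in control MSCs and 24.9, 30.9 and 22.0 with CK666, and 84.1, 77.2 and 68.3 in control NIH3T3 cells and 35.6, 16.6 and 41.1 with CK666. All control libraries lay above all treated ones in both cell types. The log2 fold change was -1.81 ± 0.24 (adjusted p = 1.4e-08) in MSCs and -1.30 ± 0.26 (adjusted p = 0.00015) in NIH3T3 cells, and both calls were kept whichever library was left out. The overlapping window at 24 h held only 8.8 to 24.2 counts per library, with log2 fold changes of -0.61 ± 0.43 for CK666 (adjusted p = 0.46) and -0.10 ± 0.43 for CytoD (adjusted p = 0.92), errors that leave a large change undetectable at that depth.

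The sequences of these 2 Dstn regions are shown because the windows lost accessibility in both cell types and because Dstn is a cytoskeletal gene in the class that MRTF and SRF control. The promoter is chr2:143915081-143915330 and the other stretch is the centre of the upstream window, chr2:143912111-143912410, both on the plus strand of GRCm38 from RefSeq. Both strands were searched. Capitals mark matches to the CArG box and to a CArG-like form in which 1 of the 6 middle bases is G or C, a form added to the search after the promoter had been read.
Dstn promoter: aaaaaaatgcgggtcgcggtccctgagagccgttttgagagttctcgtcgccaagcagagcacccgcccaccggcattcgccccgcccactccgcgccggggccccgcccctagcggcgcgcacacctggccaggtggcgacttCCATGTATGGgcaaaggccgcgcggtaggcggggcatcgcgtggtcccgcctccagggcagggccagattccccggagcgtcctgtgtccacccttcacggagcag
Dstn upstream window: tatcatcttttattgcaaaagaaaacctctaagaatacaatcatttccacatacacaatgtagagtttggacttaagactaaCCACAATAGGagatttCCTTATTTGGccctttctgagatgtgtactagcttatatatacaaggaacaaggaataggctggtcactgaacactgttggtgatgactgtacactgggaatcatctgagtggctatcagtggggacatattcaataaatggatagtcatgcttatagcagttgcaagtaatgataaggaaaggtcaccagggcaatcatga
The upstream window holds an exact CArG box, CCTTATTTGG at bases 99 to 108, and a CArG-like match, CCACAATAGG at bases 83 to 92. An exact box was present in 1.63% and a CArG-like match in 8.90% of the central 300 bases of all tested 4 h windows. The promoter holds no exact box. It holds the CArG-like match CCATGTATGG, which begins 106 bases before the RefSeq start, and 7.25% of 32851 RefSeq promoters hold such a match in the same 250 bases. Because that form was added after this promoter had been read, the share is no test of the match. The upstream window was chosen for its loss of accessibility and searched for several motifs, so its shares are no test either. A match is a description of the letters, and binding of SRF was not measured.

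Loss of accessibility at 4 h was spread along the Dstn locus. In MSCs 30 of 36 tested windows and in NIH3T3 cells 31 of 37 had a negative fold change, against 16 and 14 of 31 at 24 h with CK666 and CytoD. The windows that passed numbered 5 in MSCs and 10 in NIH3T3 cells, all lower. They included chr2:143943242-143946198, a window that overlaps the 3′ end of the gene and lies mostly beyond it. It held 419 to 521 counts in control and 230 to 281 with CK666 in MSCs (-0.86 ± 0.10, adjusted p = 6.2e-11). In NIH3T3 cells it held 283 to 331 and 162 to 202 counts (-0.70 ± 0.14, adjusted p = 0.00025). An intronic window 11.8 kb downstream of the start, chr2:143927147-143927761, was called in NIH3T3 cells, with 30.4, 54.2 and 45.9 counts in control and 23.7, 11.4 and 17.2 with CK666 (-1.36 ± 0.33, adjusted p = 0.0029), and its adjusted p was 0.045 without control replicate 2, 0.018 without control replicate 3, 0.021 without CK666 replicate 2 and 0.014 without CK666 replicate 3.

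The windows farthest downstream lie in the neighbouring gene Rrbp1, which codes for a ribosome-binding protein of the endoplasmic reticulum, and were assigned to Dstn only because its start site is nearer. One of them, chr2:143946201-143950691, had the smallest p of all windows of the 10 genes in MSCs at 4 h, with 384, 406 and 372 counts in control and 127, 127 and 122 with CK666 (-1.63 ± 0.11, adjusted p = 2.0e-20), and was lower in NIH3T3 cells too (-0.72 ± 0.15, adjusted p = 0.00037). The 24 h window over its first part, chr2:143946258-143948901, had log2 fold changes of -0.62 with CK666 (adjusted p = 0.020) and -0.42 with CytoD (adjusted p = 0.17). The sole Dstn window that passed at 24 h was an intronic one that rose with CytoD, chr2:143940347-143940904, from 16.9, 46.0 and 68.8 counts to 86.5, 81.4 and 99.7 (0.97 ± 0.25, adjusted p = 0.0043), a call that gave an adjusted p of 0.096 and 0.027 on leaving out control replicates 1 and 2, and of 0.015, 0.012 and 0.055 on leaving out CytoD replicates 1, 2 and 3.

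**Figure D3:**
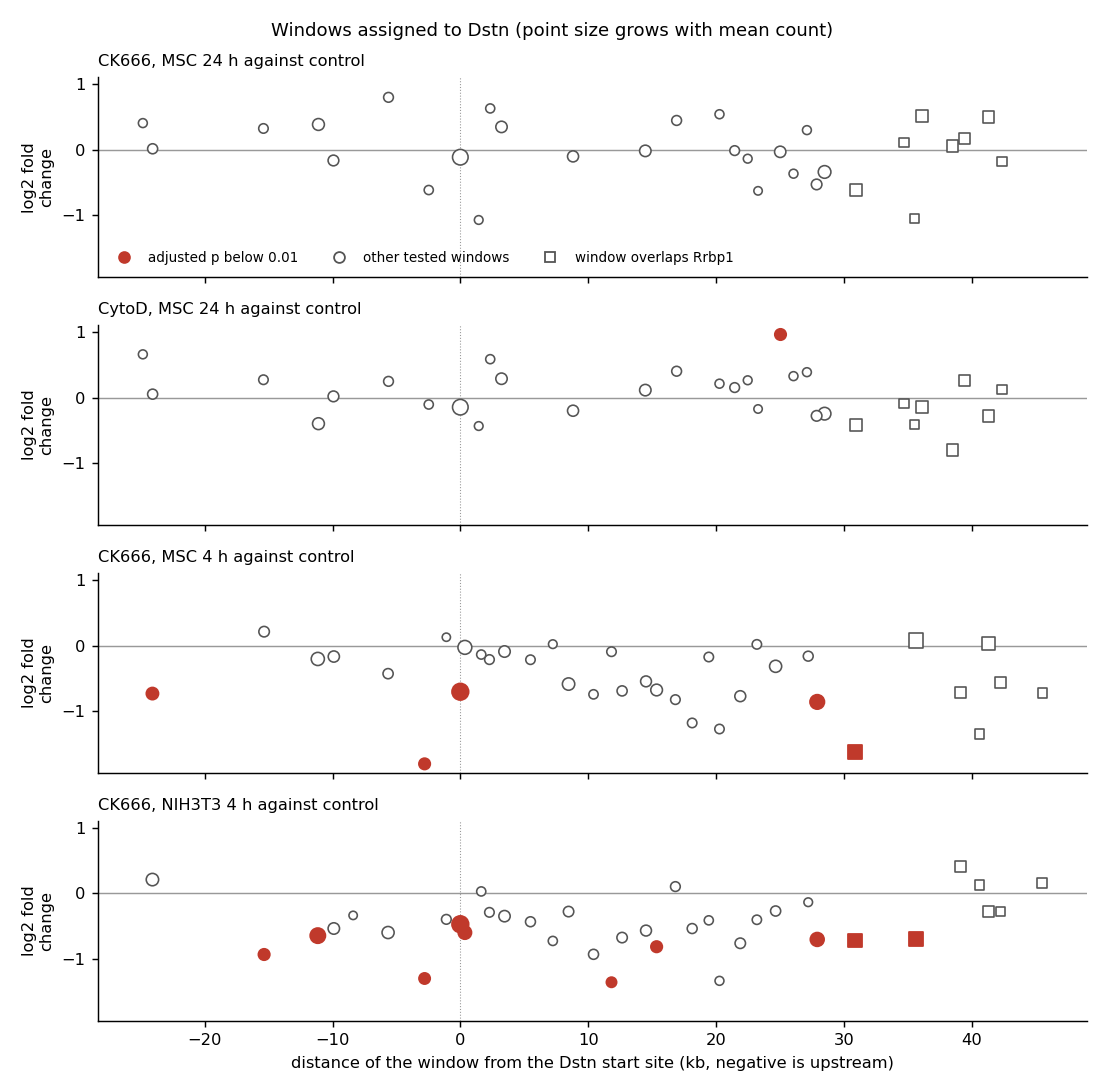
Log2 fold change of each tested window assigned to Dstn against its distance from the Dstn start site (kb), in the 4 comparisons of treated with control cells, with squares for windows that overlap Rrbp1 and filled points for an adjusted p under 0.01. At 4 h, 30 of 36 windows in MSCs and 31 of 37 in NIH3T3 cells lie below 0, and at 24 h the points scatter around 0.

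The cofilin genes moved less than Dstn. Cfl2, the form of cofilin known from muscle, had 2595, 2644 and 2602 summed counts in control MSCs at 4 h and 2366, 2201 and 2087 with CK666, a change of -0.24 ± 0.05 (adjusted p = 9.1e-05). The groups did not overlap. It gave -0.22 ± 0.07 with CytoD (adjusted p = 0.011, and 0.0082 without control replicate 1), 0.08 ± 0.06 with CK666 for 24 h (adjusted p = 0.38) and -0.08 ± 0.06 in NIH3T3 cells (adjusted p = 0.32). Cfl2 windows passed without being called in 3 of the 4 comparisons, 2 in each and all lower, among them the intergenic chr12:54833915-54834476 in NIH3T3 cells, with 152 to 188 counts in control and 70.7 to 119.5 with CK666 (-0.93 ± 0.17, adjusted p = 6.4e-05).

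Cfl1, the gene of the ubiquitous non-muscle cofilin, is short and had 5 windows at 24 h and 3 at 4 h. Its summed counts in NIH3T3 cells were 217, 236 and 247 in control and 327, 314 and 286 with CK666, a change of 0.40 ± 0.12 (adjusted p = 0.0062). All treated libraries lay above all control libraries, but the adjusted p ended between 0.015 and 0.045 when control replicate 1, 2 or 3 or CK666 replicate 1 or 2 was left out, and it was 0.044 with abundance-dependent scaling. In MSCs its values were 0.09 at 4 h, 0.20 with CK666 for 24 h and 0.17 with CytoD, with adjusted p of 0.57, 0.31 and 0.37.

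Mical2, the gene of the nuclear enzyme that oxidises actin, lost accessibility in each of the 3 MSC comparisons. The gene spans chr7:112225856-112413106 on the plus strand. At 24 h its 62 windows summed to 4005, 4054 and 4036 counts in control, 3410, 3150 and 3292 with CK666 and 3295, 3376 and 3148 with CytoD, which gave -0.30 ± 0.04 for CK666 (adjusted p = 6.8e-08) and -0.30 ± 0.04 for CytoD (adjusted p = 7.6e-08). The inhibitors share the control libraries. At 4 h the 68 windows summed to 8755, 8633 and 7933 counts in control MSCs and 6691, 6310 and 6069 with CK666 (-0.41 ± 0.04, adjusted p = 6.9e-16). In NIH3T3 cells the sums overlapped, with 4214, 4579 and 4165 in control and 3788, 4312 and 4264 with CK666 (-0.07 ± 0.06, adjusted p = 0.37).

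The start-site window of Mical2 did not pass in any of these comparisons, with log2 fold changes of 0.08, -0.27, -0.18 and -0.08 for CK666 at 24 h, CytoD, MSCs at 4 h and NIH3T3 cells, and the loss stood in intronic windows. The window chr7:112289919-112290481, 18.6 kb downstream of a start, held 279, 296 and 325 counts in control and 163, 172 and 211 with CK666 at 24 h (-0.73 ± 0.12, adjusted p = 3.5e-06). CytoD libraries held 249.4, 265 and 207 (-0.33 ± 0.12, adjusted p = 0.065). Its match at 4 h, chr7:112289916-112290476, went from 801, 725 and 591 to 499, 501 and 413 in MSCs (-0.58 ± 0.08, adjusted p = 1.2e-07) and from 209, 204 and 204 to 126, 178 and 190 in NIH3T3 cells (-0.30 ± 0.15, adjusted p = 0.19). In MSCs treated and control libraries were separate at both times.

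A second intronic window, chr7:112332382-112332899, responded to CytoD more than any other window of the 10 genes by adjusted p. It held 287, 351 and 352 counts in control, 258, 189 and 201 with CK666 and 136, 182 and 172 with CytoD. CytoD libraries were all lowest, control libraries all highest. The change was -1.02 ± 0.13 with CytoD (adjusted p = 2.4e-09) and -0.62 ± 0.12 with CK666 (adjusted p = 8.6e-05), and the 4 h window over it changed by -0.42 ± 0.07 in MSCs (adjusted p = 8.2e-06) and by -0.26 ± 0.14 in NIH3T3 cells (adjusted p = 0.21). With CytoD it stood close to the fold limit and gave -0.99 without control replicate 2 or 3 and -0.93 without CytoD replicate 1, with the adjusted p still under 0.01. A further one, chr7:112298865-112300152, went from 651, 609 and 551 to 390, 329 and 279 counts in MSCs at 4 h (-0.86 ± 0.09, adjusted p = 3.5e-12), and the 24 h window over it was lower with CK666 (-0.68 ± 0.16, adjusted p = 0.0012) and with CytoD (-0.86 ± 0.16, adjusted p = 6.2e-05).

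The central 300 bases of these last 2 windows, chr7:112332491-112332790 and chr7:112299359-112299658 on the plus strand, are given because they mark the intronic loss at Mical2 in MSCs. In their labels, lowest stands for the Mical2 window of smallest p, with CytoD at 24 h and with CK666 in MSCs at 4 h. Capitals mark the AP-1 motif (TGANTCA, either strand). It occurs in the central 300 bases of 21.1% of all tested 24 h windows and 28.8% of all tested 4 h windows.
Mical2 window lowest with CytoD: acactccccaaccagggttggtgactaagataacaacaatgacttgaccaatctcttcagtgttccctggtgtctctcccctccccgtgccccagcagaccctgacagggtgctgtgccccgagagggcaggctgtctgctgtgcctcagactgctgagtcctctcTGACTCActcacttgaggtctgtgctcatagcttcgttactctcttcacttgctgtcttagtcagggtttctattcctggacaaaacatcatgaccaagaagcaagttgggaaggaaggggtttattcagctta
Mical2 window lowest with CK666 at 4 h: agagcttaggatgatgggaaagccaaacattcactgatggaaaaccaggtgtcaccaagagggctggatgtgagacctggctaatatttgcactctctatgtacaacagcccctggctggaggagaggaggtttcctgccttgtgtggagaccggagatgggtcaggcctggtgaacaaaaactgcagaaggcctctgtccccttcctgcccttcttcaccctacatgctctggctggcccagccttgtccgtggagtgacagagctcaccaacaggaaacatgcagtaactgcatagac
The first holds TGACTCA at bases 167 to 173, and the second holds no match to AP-1, TEAD (GGAATG), CArG box or CTCF core (CCACNAGG), which says only that these letters are absent from the stretch.

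A few Mical2 windows went against the direction of the gene or changed in NIH3T3 cells alone. With CytoD the intronic window chr7:112321718-112322338 rose from 15.6, 5.1 and 5.4 counts to 31.8, 25.5 and 40.2 (1.998 ± 0.44, adjusted p = 0.00064), a call lost on leaving out control replicate 2 (0.017), control replicate 3 (0.014) or CytoD replicate 3 (0.017). In NIH3T3 cells the intronic window chr7:112234334-112234924 fell from 69.9, 55.9 and 69.2 counts to 7.4, 28.1 and 21.0 (-1.71 ± 0.29, adjusted p = 1.4e-05). The groups stood apart, with CK666 replicate 1 lowest. Upstream of the gene, chr7:112223181-112223825 fell there from 99.2, 87.9 and 76.4 counts to 38.6, 52.0 and 36.3 (-1.05 ± 0.22, adjusted p = 0.00050), a value close to the fold limit that was -0.98 without control replicate 1 and -0.997 without CK666 replicate 1, and its adjusted p rose to 0.013 without CK666 replicate 3.

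Mrtfa, the gene of the monomer-sensing coactivator MRTF-A, lost accessibility in MSCs and gained it in NIH3T3 cells. It lies on chr15:81012281-81190757 on the minus strand. At 24 h its windows summed to 2549, 2437 and 2485 counts in control, 1906, 1922 and 2004 with CK666 (-0.36 ± 0.04, adjusted p = 1.9e-08) and 1868, 1945 and 1933 with CytoD (-0.38 ± 0.04, adjusted p = 1.1e-08). No treated library reached a control library. At 4 h MSCs went from 5827, 6128 and 5401 to 4781, 4567 and 4724 (-0.30 ± 0.04, adjusted p = 2.8e-09). NIH3T3 cells went from 3236, 3532 and 3109 to 3858, 4118 and 3784 (0.25 ± 0.06, adjusted p = 0.00057), with an adjusted p of 0.016 when control replicate 3 was left out and a change of 0.42 with abundance-dependent scaling.

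Among the windows that passed with CK666 at 24 h, the largest loss was in an Mrtfa intron, at chr15:81102006-81102902, 2.2 kb from an internal start. The counts were 100, 98.9 and 136.7 in control, 44.9, 38.3 and 40.3 with CK666 and 62.4, 65.6 and 52.1 with CytoD, so the 3 groups did not overlap. The log2 fold change was -1.45 ± 0.21 with CK666 (adjusted p = 1.4e-07) and -0.91 ± 0.21 with CytoD (adjusted p = 0.00099). At 4 h, chr15:81102115-81102938 went from 437, 416 and 312 to 220, 232 and 212 in MSCs (-0.81 ± 0.11, adjusted p = 1.2e-08). In NIH3T3 cells it was little open, with 35.1 to 49.3 counts in control and 41.6 to 57.3 with CK666 (0.32 ± 0.26, adjusted p = 0.45). Its central 300 bases, chr15:81102305-81102604, are shown on the plus strand of GRCm38, which is the strand opposite to Mrtfa, as the called window of largest loss with CK666 at 24 h.
Mrtfa intronic window: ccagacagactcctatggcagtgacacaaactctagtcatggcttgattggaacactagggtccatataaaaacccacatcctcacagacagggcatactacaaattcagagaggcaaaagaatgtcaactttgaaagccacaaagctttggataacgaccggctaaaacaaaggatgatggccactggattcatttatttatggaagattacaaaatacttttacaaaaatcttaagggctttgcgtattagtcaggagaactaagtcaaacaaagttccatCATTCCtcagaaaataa
Capitals mark CATTCC at bases 284 to 289, the other-strand form of the TEAD motif GGAATG, which 19.9% of all tested 24 h windows hold in their central 300 bases.

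**Figure D4:**
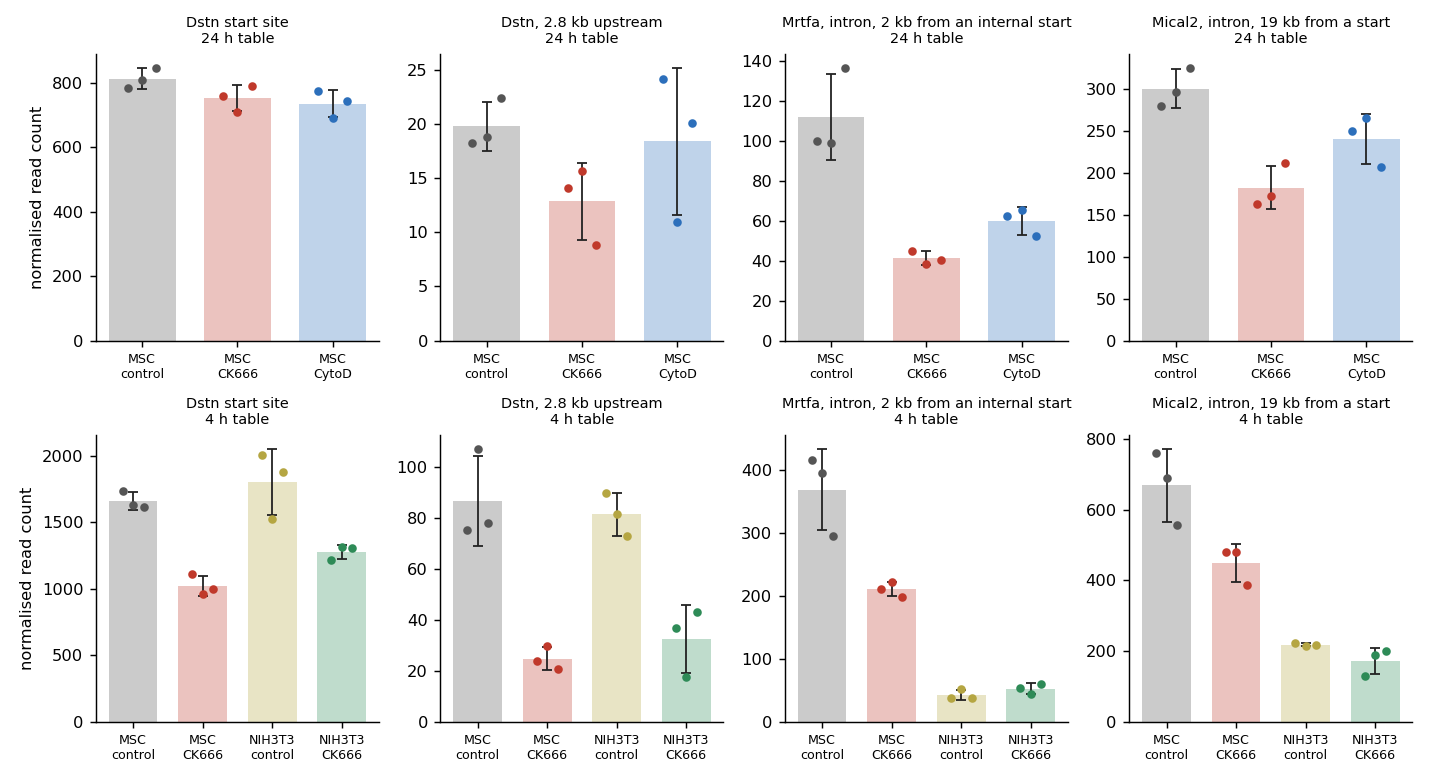
Normalised read counts at 4 windows in the 24 h table (upper row) and at the overlapping windows in the 4 h table (lower row, with all 12 libraries normalised together), with bars for the mean of 3 libraries, error bars for SD and points for libraries. Both Dstn windows drop with CK666 at 4 h in MSCs and NIH3T3 cells, and the Mrtfa and Mical2 windows are lower with CK666 in MSCs at both times.

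Another intronic Mrtfa window, chr15:81181437-81182796, was called with CK666 at 24 h but rested on single libraries. It held 75.3, 34.1 and 39.3 counts in control and 14.05, 24.4 and 25.5 with CK666 (-1.18 ± 0.33, adjusted p = 0.0097), and its adjusted p was 0.19 without control replicate 1, 0.092 without CK666 replicate 1, 0.021 without CK666 replicate 2 and 0.014 without CK666 replicate 3. The 4 h window over it, chr15:81181674-81182772, was called in MSCs, with 59.9, 77.9 and 64.3 counts in control and 30.8, 29.2 and 26.8 with CK666 (-1.22 ± 0.25, adjusted p = 0.00028). Only this window of Mrtfa was called lower in MSCs at 4 h.

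With CytoD 3 windows at Mrtfa were called, each with all CytoD libraries under the control libraries. The window chr15:81070392-81070959 fell from 113 to 172 counts in control to 48.5 to 76.5 (-1.08 ± 0.19, adjusted p = 1.0e-05), and gave -0.92 without control replicate 3 and -0.89 without CytoD replicate 3. The window chr15:81192210-81193411, 1.5 kb upstream of the gene, fell from 67.3 to 97.4 counts to 30.5 to 50.3 (-1.13 ± 0.23, adjusted p = 0.00024). The window chr15:81073665-81074184 fell from 59.7 to 87.8 counts to 26.7 to 46.1 (-1.07 ± 0.24, adjusted p = 0.00086), a call lost without control replicate 2 (adjusted p = 0.015) or CytoD replicate 1 (adjusted p = 0.013).

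A single Mrtfa window rose in MSCs at 4 h, the intronic chr15:81142025-81142664, from 19.2, 16.8 and 16.1 to 41.8, 38.9 and 44.0 counts (1.25 ± 0.31, adjusted p = 0.0040). Its groups were well apart, yet its adjusted p was between 0.012 and 0.025 whenever any of the 6 libraries was left out. Upstream of the gene, chr15:81192798-81193362 rose in NIH3T3 cells without being called, from 110, 103 and 102 to 174, 217 and 175 counts (0.85 ± 0.16, adjusted p = 7.8e-05).

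Mrtfb, the gene of the sister coactivator MRTF-B on chr16:13256481-13417529, changed with CytoD. Its windows at 24 h summed to 2886, 2883 and 2660 counts in control, 2372, 2444 and 2266 with CytoD (-0.25 ± 0.04, adjusted p = 2.1e-05) and 2530, 2558 and 2691 with CK666 (-0.11 ± 0.04, adjusted p = 0.046). CytoD libraries were all under the control libraries and CK666 libraries overlapped them. At 4 h the sums gave -0.04 in MSCs (adjusted p = 0.56) and 0.03 in NIH3T3 cells (adjusted p = 0.64). The NIH3T3 value was 0.20 with abundance-dependent scaling (adjusted p = 0.00058) and 0.30 within 5 kb of a start site (adjusted p = 0.00073).

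The Mrtfb window over an internal start, chr16:13357646-13359024, was the sole start-site window of the 10 genes that passed at 24 h. It held 287, 317 and 362 counts in control and 245, 206 and 268 with CK666 (-0.43 ± 0.11, adjusted p = 0.0056), and its adjusted p was 0.015 without control replicate 2, 0.078 without control replicate 3, 0.017 without CK666 replicate 1 and 0.090 without CK666 replicate 2. An intergenic window 15.7 kb upstream, chr16:13240258-13240788, was lower with CK666, at 120, 138 and 151 counts against 218, 199 and 218 in control (-0.63 ± 0.14, adjusted p = 0.00046, and 0.012 without CK666 replicate 1), and with CytoD, at 123, 147 and 137 counts (-0.64 ± 0.14, adjusted p = 0.00064). The 4 h window that covers it was lower in MSCs as well (-0.47 ± 0.08, adjusted p = 3.3e-06).

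Windows at Mrtfb also rose. With CK666, 1 passed higher and 3 lower at 24 h, and 2 higher and 1 lower in MSCs and again in NIH3T3 cells at 4 h. The intronic window chr16:13371855-13372506 rose with CK666 at 24 h from 135, 107 and 111 to 173, 172 and 198 counts (0.63 ± 0.15, adjusted p = 0.0016), and its 4 h match rose in MSCs from 116, 130 and 107 to 206, 157 and 171 (0.59 ± 0.14, adjusted p = 0.0031). At chr16:13265745-13266268, near a start, MSCs at 4 h went from 23.5, 31.6 and 38.6 to 63.7, 56.6 and 68.9 counts (1.01 ± 0.25, adjusted p = 0.0040), a call with an adjusted p of 0.055 without control replicate 1, 0.018 without control replicate 2, 0.018 without CK666 replicate 1 and 0.033 without CK666 replicate 3. In NIH3T3 cells the intronic chr16:13260222-13261746 went from 101, 109 and 109.7 to 212, 195 and 159.6 counts (0.81 ± 0.16, adjusted p = 0.00017).

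The transport genes changed little in MSCs. Ipo9, the actin importin, gave summed log2 fold changes of -0.17 and 0.01 with CK666 and CytoD at 24 h, -0.08 in MSCs and 0.10 in NIH3T3 cells at 4 h, with adjusted p from 0.099 to 0.91, and none of its windows passed. Xpo6, the actin exportin, gave -0.04, 0.01 and 0.01 in the 3 MSC comparisons. In NIH3T3 cells its sum went from 1143, 1062 and 1087 to 965, 918 and 781 counts (-0.31 ± 0.07, adjusted p = 0.00098). The groups did not overlap, but the adjusted p was 0.029 without CK666 replicate 3, and within 5 kb of the start site the change was -0.18 (adjusted p = 0.11). The single Xpo6 window that passed there lies beyond the 3′ end of the gene, 14.9 kb from an annotated start, at chr7:126097432-126097960, and went from 330, 292 and 309 to 191, 199 and 171 counts (-0.73 ± 0.14, adjusted p = 0.00011). The same place passed with CytoD at 24 h, with 212, 222 and 241 counts in control and 144, 166 and 164 with CytoD (-0.51 ± 0.13, adjusted p = 0.0035), though on leaving out control replicates 2 and 3 the adjusted p was 0.011 and 0.028, and on leaving out CytoD replicates 1 and 3 it was 0.027 and 0.011.

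The profilin genes held few windows, and none of them passed in any treated against control comparison. Pfn1, the profilin of nearly all cells, had summed counts of 619, 625 and 524 in control MSCs at 4 h and 509, 456 and 501 with CK666 (-0.27 ± 0.09, adjusted p = 0.016, and 0.0016 without control replicate 3). These libraries did not overlap. In the other comparisons Pfn1 gave 0.08, -0.14 and 0.05 for CK666 at 24 h, CytoD and NIH3T3 cells (adjusted p = 0.68, 0.41 and 0.65). Pfn2, the profilin best known from neurons, gave 0.01, 0.18, -0.07 and 0.08 in the 4 comparisons, with adjusted p from 0.18 to 0.96. For each of the 10 genes, the window of smallest p had an adjusted p between 1.4e-07 and 0.52 with CK666 at 24 h, 2.4e-09 and 0.51 with CytoD, 2.0e-20 and 0.49 in MSCs at 4 h and 1.4e-05 and 0.24 in NIH3T3 cells.

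CK666 and CytoD were compared directly at 24 h. Of the 218 windows, 4 were called, 2 higher and 2 lower with CK666, against 3.28% of all windows, and 2 were called without CK666 replicate 1 and 1 without CytoD replicate 3. The higher ones were Mrtfb windows, chr16:13405168-13405925 with 41.2, 38.3 and 45.2 counts with CK666 and 20.4, 12.1 and 9.1 with CytoD (1.61 ± 0.35, adjusted p = 0.00051) and chr16:13311331-13311899 with 60.9, 50.5 and 50.1 against 28.0, 20.7 and 31.1 (1.002 ± 0.28, adjusted p = 0.010). The lower ones were the Dstn intronic window that rose with CytoD (-1.002 ± 0.25, adjusted p = 0.0024) and the Mical2 window chr7:112312623-112313528, which had 0, 0 and 3.9 counts with CK666 and 16.5, 15.8 and 27.4 with CytoD (adjusted p = 0.00025). The last was little open in any library. At the intronic Mrtfa window of largest loss with CK666 the direct difference was -0.53 ± 0.23 (adjusted p = 0.13).

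By summed windows 1 of the 10 genes differed between CK666 and CytoD, against 19.9% of all genes. It was Cfl2, with 1306, 1078 and 1258 counts with CK666 and 964, 1022 and 971 with CytoD (0.30 ± 0.06, adjusted p = 0.00038). The groups did not overlap, but the adjusted p was 0.011 without CK666 replicate 1 and 0.049 within 5 kb of a start site. Ipo9 gave -0.18 (adjusted p = 0.057) and Mrtfb 0.14 (adjusted p = 0.014), and the other genes had adjusted p from 0.16 to 0.92.

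The response to CK666 at 4 h was also compared between the cell types, as the effect in NIH3T3 cells minus that in MSCs with all 12 libraries in the model. By summed windows 3 of the 10 genes differed, against 16.9% of all genes. Mrtfa differed by 0.54 ± 0.07 (adjusted p = 1.7e-07), Mical2 by 0.32 ± 0.07 (adjusted p = 0.00056) and Xpo6 by -0.34 ± 0.09 (adjusted p = 0.0056). For Dstn the difference was 0.02 ± 0.06 (adjusted p = 0.86), a value whose error leaves room for a small difference. Of 261 windows 5 were called, against 1.4% of all windows, though only 2 without MSC control replicate 1 and 3 without MSC control replicate 3, and the start-site windows, 1 per gene, had adjusted p from 0.27 to 0.96.

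Untreated NIH3T3 cells and MSCs at 4 h differed more than treated and control cells did. Cell type and library set cannot be told apart here. Of 261 windows 34 were higher and 68 lower in NIH3T3 cells, 39.1% in all, against 34.5% of all windows, and 6 of the 10 genes differed by summed windows, against 64.4% of all genes. Pfn2 was higher in NIH3T3 cells (0.60 ± 0.07, adjusted p = 3.8e-10), as were Dstn (0.38 ± 0.05, adjusted p = 2.4e-10) and Cfl2 (0.27 ± 0.06, adjusted p = 1.7e-05). Mical2 was lower (-0.56 ± 0.05, adjusted p = 4.6e-14), as were Mrtfa (-0.41 ± 0.05, adjusted p = 7.0e-10) and Mrtfb (-0.17 ± 0.05, adjusted p = 0.0015).

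Windows were followed between experiments that share no library, by an overlap of at least 1 bp. Of the 11 windows that passed with CK666 at 24 h, 8 had a window that passed in the same direction in MSCs at 4 h, and 7 of the 23 that passed at 4 h had such a window at 24 h. Over all windows with a match, the shares that passed in the same direction were 30.5% and 42.2%. Between cell types 4 of the 22 matched windows that passed in MSCs at 4 h also passed in the same direction in NIH3T3 cells, and those 4 were at Dstn. Over all matched windows this share was 18.3%. None of the 11 windows of the 24 h list passed in NIH3T3 cells with CK666, and 16.9% of all matched windows did so in the same direction. In none of these CK666 pairs did both windows pass in opposite directions.

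Other genes of the same machinery were taken as a list of 34, chosen with earlier results of these data known. They comprise filament turnover proteins, cofilin kinases and phosphatases, monomer-binding proteins and actins, transport factors, SRF and its partners, other MICAL proteins with the enzymes that reverse their oxidation, and testis profilins. Their windows were called 11 higher and 7 lower of 498 with CK666 at 24 h, 4 higher and 9 lower with CytoD, 3 higher and 6 lower of 491 in MSCs at 4 h, and 2 higher and 20 lower of 534 in NIH3T3 cells. Over all windows, 1.88% and 1.06% were called higher and lower with CK666 at 24 h, and 0.98% and 1.4% with CytoD. In MSCs at 4 h these shares were 0.59% and 0.427%, and in NIH3T3 cells 1.87% and 1.67%. The medians of the related windows were 0.00, 0.00, -0.03 and -0.08.

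By summed windows 2 of the 33 related genes tested fell with CK666 at 24 h, namely Tmsb10, which codes for a monomer-sequestering thymosin (-0.16 ± 0.04, adjusted p = 0.0043), and Phactr1, whose protein binds monomers as MRTFs do (-0.25 ± 0.07, adjusted p = 0.0090). Over all genes 7.88% were lower and 5.87% higher. CytoD lowered 5 and raised 2, among them Myocd, the relative of the MRTF genes (-0.48 ± 0.10, adjusted p = 0.00015), and Kpnb1, the gene of importin beta (-0.38 ± 0.07, adjusted p = 0.00010). With CytoD the shares over all genes were 9.76% lower and 7.15% higher. In MSCs at 4 h 6 of 34 fell and 1 rose, against 5.82% of all genes lower and 5.23% higher. The filament-binding coronin gene Coro1c changed by -0.41 ± 0.04 (adjusted p = 5.8e-14), the thymosin gene Tmsb4x by -0.40 ± 0.06 (adjusted p = 5.7e-07) and the actin gene Actb by -0.19 ± 0.04 (adjusted p = 0.00064). In NIH3T3 cells 13 of 34 fell and 5 rose, against 15.7% of all genes lower and 12.8% higher. Among them were Tmsb4x at -0.998 ± 0.07 (adjusted p = 8.3e-13), Coro1c at -0.63 ± 0.06 (adjusted p = 2.9e-10), Actb at -0.30 ± 0.06 (adjusted p = 4.8e-05) and Srf at 0.23 ± 0.06 (adjusted p = 0.0035).

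Examples of called windows among these related genes were at Scai, the gene of an MRTF inhibitor, where chr2:39152349-39152863 rose with CK666 at 24 h (3.75 ± 0.42, adjusted p = 3.5e-11) and chr2:39159531-39160089 fell in NIH3T3 cells (-2.10 ± 0.16, adjusted p = 2.2e-16), at Myocd with CytoD (chr11:65292915-65293480, -1.66 ± 0.27, adjusted p = 1.7e-06) and at Mical3 in MSCs at 4 h (chr6:121085555-121086612, -1.503 ± 0.16, adjusted p = 1.9e-11).

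By the median, the promoters of the 10 genes were rich in CpG, with 1 start taken per gene. Their median GC content over the 250 bases before the RefSeq start was 63.8%, with a median of 19.5 CpG dinucleotides, against 52% and 6 over 27025 genes. Mrtfa was taken at an internal start with 46.8% GC and 6 CpG, while the start at its 5′ end had 62% and 22. No promoter of the 10 genes held an exact CArG box, which 1.47% of all promoters hold, and CArG-like matches were found at Ipo9, Dstn and Mrtfa. Over the 12 libraries at 4 h the start-site levels most alike, by Pearson's r of log2 CPM, were those of Mical2 and Mrtfa (r = 0.90) and of Cfl2 and Mrtfa (r = 0.89), and these libraries share 2 cell types that differ in both. Over the 9 libraries at 24 h the most alike were Ipo9 and Mrtfb (r = 0.75). The Mrtfb window there is the one over an internal start, chr16:13357646-13359024, and not the start used at 4 h.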

How the data were processed

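ATAC-seq of mouse MSCs and NIH3T3 cells, labelled as 50000 cells per library, was processed by the authors with PEPATAC (bowtie2 on mm10, MACS2 peaks), and reads were counted in the union of peaks. The sources used here give no versions. The deposited values are raw counts per window, 1 table for 24 h and 1 for 4 h, with group and replicate read from the column names. Of 30 libraries in 10 groups, 21 in 7 groups were used. The 9 siRNA libraries were left out, and their columns, whose rank correlation with the 24 h libraries over 162723 shared windows was between -0.0037 and 0.0014, were not analysed further.

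Windows were assigned to start sites as described. Counts were filtered by expression, scaled by TMM and tested with edgeR 4.0.16 (quasi-likelihood, R 4.3.3), with Benjamini-Hochberg adjustment over all windows or all genes, separately for 24 h (9 libraries) and each cell type at 4 h (6), and over 12 libraries for the comparisons between cell types. Levels per kb are CPM divided by window width, with CPM taken on the library total after TMM scaling. Named were, per rule, 1 start-site window per gene, every called window and each gene's window of smallest p, where it passed, in a treated comparison. Its match in the other table and up to 4 called windows of related genes per comparison were added. Some windows of smallest p that passed are not described above, all lower. With CytoD they were chr16:13350664-13351209 at Mrtfb (-0.98, adjusted p = 0.00018) and chr12:54839793-54840311 at Cfl2 (-0.62, adjusted p = 0.0072). At 4 h they were chr12:54859449-54860029 at Cfl2 in MSCs (-0.53, adjusted p = 0.00054) and chr2:143902772-143904170 at Dstn in NIH3T3 cells (-0.65, adjusted p = 0.00010). The other windows named, at Mical2, Mrtfa, Mrtfb, Cfl2 and Dstn, were chosen after their values were seen. The 10 genes and the lists were chosen with earlier results of these data known. DESeq2 1.42.0, other scalings and filters, a replicate block, leaving out each library and a 5 kb limit were alternatives. On simulated counts, changes were placed only in windows with a mean of at least 20 counts. Of those changed by a log2 value of 2, the test recovered 84% at 24 h, 92% in MSCs and 82% in NIH3T3 cells at 4 h. At a log2 value of 1.5 it recovered 71%, 75% and 61%. Recovery in windows with fewer counts and of smaller changes was not simulated. Python 3.11.15, numpy 2.4.6, pandas 2.3.3 and matplotlib 3.10.9 were used. Total counts of 14071301 to 34979833 per library limit the precision of windows with few counts. A further blood-cell marker is not reported here.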

Additional observations from a re-analysis of the deposited data

Results flagged for a closer look

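The effect of CK666 at 4 h differed between NIH3T3 cells and MSCs in the following windows and sums, given as the log2 effect in NIH3T3 cells minus that in MSCs, with the adjusted p of edgeR's quasi-likelihood interaction test. At Mical2 the intronic window chr7:112298865-112300152 differed by 1.03 (adjusted p = 1.7e-05) and chr7:112234334-112234924 by -2.27 (adjusted p = 0.0011). At Xpo6 the window chr7:126097432-126097960 beyond the gene differed by -0.84 (adjusted p = 0.00044). At Mrtfa 3 windows differed, chr15:81192798-81193362 by 1.18 (adjusted p = 0.00085), chr15:81192217-81192765 by 0.79 (adjusted p = 0.0023) and chr15:81102115-81102938 by 1.10 (adjusted p = 0.0039). At Mrtfb the window chr16:13371844-13372490, which rose with CK666 in MSCs, differed by -1.02 (adjusted p = 0.00085). Near Dstn, windows within Rrbp1 differed in both directions, chr2:143950960-143954328 by -0.80 (adjusted p = 0.0012) and chr2:143946201-143950691 by 0.88 (adjusted p = 0.0021). By summed windows Mrtfa differed by 0.54 (adjusted p = 1.7e-07), Mical2 by 0.32 (adjusted p = 0.00056) and Xpo6 by -0.34 (adjusted p = 0.0056). Their causes were not tested.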

How the results depend on the processing

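The 48 named values that passed gave 638 values under the alternatives, of which 549 kept their direction and their side of the threshold, 89 lost the threshold and none changed sign. Called windows went from 2 to 1 with CK666 at 24 h under total-count scaling, the replicate block, DESeq2 and the 5 kb limit. They went from 5 to 1 with CytoD under the 5 kb limit, from 4 to 2 (DESeq2) and 0 (5 kb) between CK666 and CytoD, from 5 to 3 (DESeq2) and 2 (5 kb) in MSCs at 4 h, and from 4 to 2 (5 kb) in NIH3T3 cells. Between cell types the response windows went from 5 to 8 (abundance-dependent scaling, added after seeing the data) and 2 (5 kb), the response sums from 3 to 1 (5 kb), and the untreated windows from 102 to 19 (5 kb). The sums called between CK666 and CytoD went from 1 to 2 under abundance-dependent scaling, which added Mrtfb, and the 1 called within 5 kb was Ipo9 in place of Cfl2. The 5 kb limit leaves fewer windows by construction, and the other causes were not tested.

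With 1 library left out, called windows ran from 1 to 4 with CK666 at 24 h, 3 to 9 with CytoD, 1 to 6 between the inhibitors, 3 to 5 in MSCs at 4 h, 2 to 6 in NIH3T3 cells, 2 to 5 for the response between cell types and 89 to 102 between untreated cells. Genes called by sums ran from 2 to 2, 3 to 4, 4 to 5 and 2 to 3 in the 4 treated comparisons, 2 to 3 for the response, 5 to 7 between untreated cells and 0 to 1 between the inhibitors.

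Same-numbered libraries did not deviate together (correlations from -0.086 to 0.058), so the numbers were not taken as pairs. With the replicate block, the called windows were 1, 6, 6 and 4 in the 4 treated comparisons and 3 between CK666 and CytoD, and the start-site window of Dstn in NIH3T3 cells had -0.46 (adjusted p = 0.079).

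Total-count scaling moved the median of all windows by 0.11 in NIH3T3 cells and for the response, and by 0.23 between untreated cells. The share of calls that were higher went from 52.8% to 69.5% in NIH3T3 cells, from 41.2% to 56.4% with CytoD, from 65.3% to 53.8% between CK666 and CytoD, from 35.5% to 53.8% for the response and from 46.9% to 59.2% between untreated cells, and with abundance-dependent scaling it was 47.3% for the response.

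The 64 named values that did not pass gave 859 values, of which 788 stayed the same, 10 passed and 61 changed sign, all on small log2 changes. With CK666 at 24 h these were Pfn2 summed (-0.029 within 5 kb) and its start-site window (-0.0068 with DESeq2 size factors, -0.014 without the filter, -0.0072 in DESeq2). With CytoD they were the start-site windows of Ipo9 (0.00084 total-count, 0.092 abundance-dependent), Cfl1 (0.019) and Dstn (0.011, both abundance-dependent) and Pfn1 (0.030 total-count, 0.013 for a mean of at least 20 counts, 0.12 abundance-dependent). In MSCs at 4 h they were the sums of Xpo6 (-0.12 within 5 kb) and Mrtfb (0.017 abundance-dependent, 0.19 within 5 kb). In NIH3T3 cells they were the sums of Cfl2 (0.0063 total-count, 0.055 abundance-dependent, 0.11 within 5 kb) and Mical2 (0.016 total-count, 0.11 abundance-dependent), and the start-site windows of Xpo6 (0.0036 total-count, 0.082 abundance-dependent), Cfl2 (-0.0034 without the filter, -0.012 in DESeq2), Pfn2 (-0.011 without the filter, -0.020 in DESeq2), Mical2 (0.037 total-count, 0.12 abundance-dependent) and Mrtfb (0.023 abundance-dependent).

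With 1 library left out, changes of sign gave these ranges. At 24 h with CK666, Pfn1 summed ran from -0.040 to 0.18, Pfn2 summed from -0.028 to 0.079, and the start-site windows of Pfn2 from -0.065 to 0.086 and Mical2 from -0.021 to 0.13. With CytoD, Ipo9 summed ran from -0.011 to 0.055, Xpo6 summed from -0.033 to 0.045, and the start-site windows of Xpo6 from -0.12 to 0.10, Cfl2 from -0.0020 to 0.086 and Pfn1 from -0.13 to 0.023. In MSCs at 4 h, Xpo6 summed ran from -0.036 to 0.044, and the start-site windows of Pfn2 from -0.071 to 0.028 and Mrtfb from -0.019 to 0.060. In NIH3T3 cells, the start-site windows of Xpo6 ran from -0.24 to 0.022, Cfl2 from -0.029 to 0.028, Pfn2 from -0.077 to 0.10 and Mical2 from -0.28 to 0.022.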
